A study of Mus musculus with 42 samples.

Results

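The genes described here are 41 genes of the core machinery of autophagy and mitophagy, chosen by name from the kinase complex that starts the process to the receptors that select its cargo. All 41 were found by symbol among the 13809 genes of the table, 1 row for each. Their RNA levels were followed in tibialis anterior (TA) muscle, a muscle of the lower hindlimb, at rest, after limb immobilization and after denervation, in mice with more or less of the stress proteins Sesn1 or Sesn2.

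Autophagy encloses cytoplasm, protein aggregates or organelles in a double membrane, the autophagosome, which then fuses with the lysosome. A kinase complex around ULK1 starts it, a lipid kinase complex marks the site, ATG9, ATG2 and WIPI proteins supply and shape the membrane, and a ubiquitin-like conjugation system attaches LC3 and GABARAP proteins to it. Receptors such as p62 bind both cargo and LC3, and mitophagy is the form that removes mitochondria. In skeletal muscle the pathway is known to be active in fasting and denervation, and both too much and too little of it are known to go with loss of muscle mass. For disuse, the study that made these libraries reported reduced autophagy flux, the turnover of autophagosomes, in immobilized WT muscle. RNA levels do not measure this flux.

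All 42 libraries came from TA muscle of male C57BL/6J mice aged 4 months, sequenced in 2 sets. Set 1 held wild-type (WT) mice, Sesn1SkM-Tg mice, which carry human Sesn1 behind the promoter of muscle creatine kinase (MCK), and Sesn2SkM-Tg mice, in which a Tet-regulated promoter drives Sesn2 where an MCK-tTA construct is active. Set 2 held WT mice and Sesn1KO mice (Sesn1-/- in the labels). Each genotype had a basal group and a group immobilized for 3 days with 1 hindlimb splinted, and set 2 also held WT muscle taken 3 days after a piece of the sciatic nerve was cut out. Basal muscle was from mice that had neither procedure. Groups had 4 libraries, except 3 for immobilized WT muscle of set 1 and 3 for immobilized Sesn1SkM-Tg muscle. The labels do not say whether each library is 1 animal, so the p-values measure the spread between libraries, which may be technical.

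Values are the normalized counts as deposited, on a linear scale near CPM (reads scaled to a common total), and the read depth behind them is unknown. Library sums lay between 722430 and 811541 in denervated muscle and between 1042064 and 1099736 in basal WT muscle of set 2. Sesn1 checked the labels: it was 41.6 to 77.6 normalized counts in basal Sesn1SkM-Tg muscle against 15.0 to 22.1 in basal WT muscle, and 8.41 to 10.0 in basal Sesn1KO muscle against 22.5 to 29.7 in basal WT muscle of set 2. Sesn2 was 6.54 to 13.0 in basal Sesn2SkM-Tg muscle against 2.18 to 3.39 in WT muscle. After immobilization 2 libraries stood apart. Replicate 3 of immobilized Sesn1SkM-Tg muscle had 23.0 for Sesn1 against 46.9 and 51.1 in the others, and replicate 1 of immobilized Sesn1KO muscle had 37.3, within the WT range of 30.7 to 53.1. Results that rest on these 2 are given with and without them. As whole groups, the immobilized libraries were also less clearly separated by Sesn1 than the basal ones. Sesn1 rose by 1.36 on the log2 scale from basal to immobilized Sesn1KO muscle (limma, adjusted p = 3.0e-06). Against immobilized WT muscle it differed by -0.66 in Sesn1KO (adjusted p = 0.069) and by 1.43 in Sesn1SkM-Tg muscle (adjusted p = 0.091). Neither difference was called by the rule given below, so the label check is weaker after immobilization. The muscle fibre markers Acta1, Ckm, Mylpf, Tnnt3, Tnnc2, Myh4, Atp2a1 and Pvalb were all present, with summed levels of 141811 to 163225 in basal WT muscle of set 2 and 59014 to 78718 in denervated muscle. The 8 macrophage and leukocyte markers that were present summed to 38.7 to 58.7 in basal and 186 to 379 in immobilized WT muscle of set 1, against 33.3 to 145 and 109.8 to 216 in set 2. With denervation the 3 satellite cell markers that were present went from 18.1 to 23.9 to 47.6 to 64.4, the 5 endothelial markers from 238 to 303 to 119.6 to 154 and the 4 Schwann cell markers from 36.8 to 62.9 to 15.0 to 20.5, in WT muscle of set 2. The part of these cells in the denervation results was not tested. In whole muscle, fewer cells of a type and less RNA per cell cannot be told apart.

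At rest the members covered a wide range of levels. Per kb of merged exons, Pink1, which encodes a kinase that marks damaged mitochondria, had the highest level, 295 per kb in WT muscle of set 1 and 282 in set 2. Sqstm1, the gene of the cargo receptor p62, came next with 156 and 125 per kb. Map1lc3a and Bnip3 followed with 101 and 85.2 per kb in set 1, and their order was reversed when the longest transcript was used as the length, so they are not ordered here. The lowest per kb in set 1 were Uvrag at 1.16, the transcription factor gene Tfe3 at 0.995 and Park2, the gene of the ubiquitin ligase parkin, at 0.805. By the longest transcript the lowest were Tfe3 at 1.46, Park2 at 1.73 and Atg4c at 1.91, with Uvrag at 2.04. Basal values for Uvrag, Tfe3 and Park2 were 10.5 ± 0.0823, 9.22 ± 1.28 and 8.23 ± 1.48 normalized counts (mean ± SD, n = 4).

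Denervation moved most of these genes, and immobilization moved fewer. Calls required an adjusted p below 0.05 in limma, with Benjamini-Hochberg adjustment over all genes tested, and a log2 change of 0.25 or more in either direction. In denervated WT muscle 31 of the 41 were called, 23 higher and 8 lower, where 55.5% of all tested genes were called (27.8% higher and 27.7% lower). This background also applies to the denervation counts by role given below. The members' median log2 fold change was 0.30 against -0.03 over all genes. Immobilized WT muscle had 14 members called in set 1, 4 higher and 10 lower, with a background of 29.3% (14.9% higher and 14.5% lower). It had 20 in set 2, 14 higher and 6 lower, with a background of 33.9% (16.2% higher and 17.7% lower). Immobilized Sesn1SkM-Tg muscle had 19 called, 5 higher and 14 lower (background 34.7%, with 18.2% higher and 16.5% lower). Sesn2SkM-Tg muscle had 15, 7 higher and 8 lower (background 30.7%, with 15% higher and 15.7% lower). Sesn1KO muscle had 22, 13 higher and 9 lower (background 37.1%, with 17.2% higher and 19.9% lower). As shares of the 41 these are 75.6% after denervation, 34.1% and 48.8% in immobilized WT muscle of set 1 and set 2, and 46.3%, 36.6% and 53.7% in immobilized Sesn1SkM-Tg, Sesn2SkM-Tg and Sesn1KO muscle. Without replicate 3 of the immobilized Sesn1SkM-Tg libraries 10 members were called in that genotype, 0 higher and 10 lower. Without replicate 3 of immobilized WT muscle, 7 were called in WT muscle of set 1. The medians of the members were -0.12 in WT muscle of set 1, -0.19 in Sesn1SkM-Tg, -0.01 in Sesn2SkM-Tg, 0.19 in WT muscle of set 2 and 0.14 in Sesn1KO muscle, with medians over all genes between -0.03 and 0.00. Tfe3 was the only member called in none of these 6 comparisons, with log2 fold changes from 0.01 to 0.30.

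**Figure D1:**
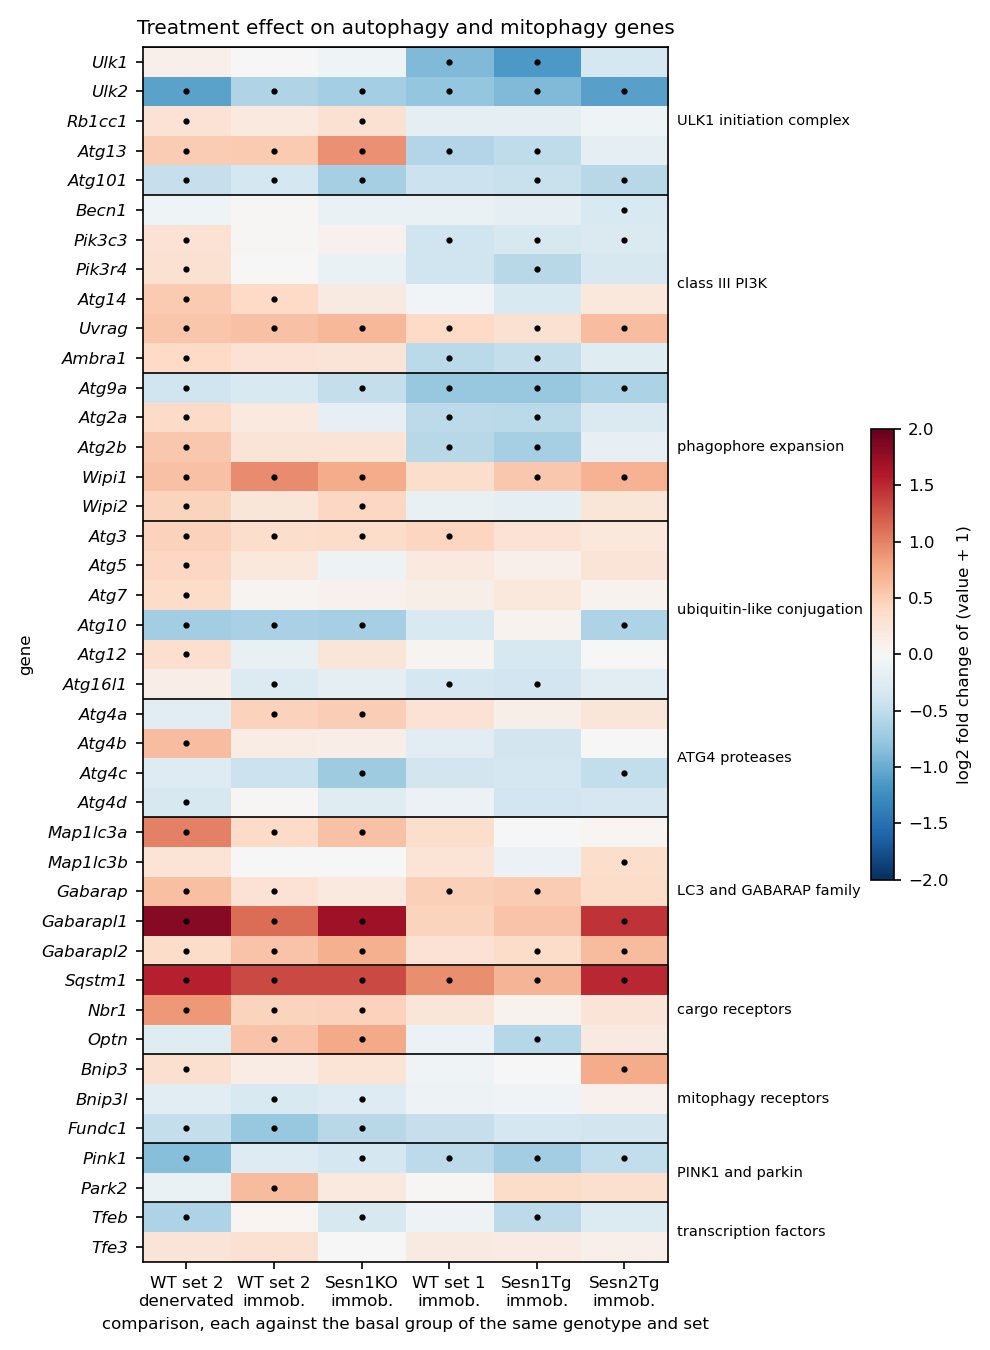
Log2 fold change of (normalized count + 1) for each of the 41 genes (1 line each, grouped by role) in 6 comparisons with the basal group of the same genotype and set (columns); red is higher, blue is lower, and a black dot marks a gene called by limma. Sqstm1 and Uvrag are red and Ulk2 is blue with a dot in all 6 columns, and the denervation column holds 31 dots.

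The balance of higher and lower calls depended on the scaling. Making library sums equal moved the median of all genes by 0.35 in denervation, 0.28 in WT muscle of set 1, 0.08 in WT muscle of set 2, 0.25 in Sesn1SkM-Tg, 0.26 in Sesn2SkM-Tg and 0.06 in Sesn1KO muscle. With it the calls were 28 higher and 2 lower after denervation, 12 and 2 in WT muscle of set 1, 20 and 3 in WT muscle of set 2, 9 and 4 in Sesn1SkM-Tg, 17 and 2 in Sesn2SkM-Tg and 18 and 6 in Sesn1KO muscle. Quantile normalization gave 7 higher and 8 lower in WT muscle of set 1 and 8 higher and 6 lower in Sesn2SkM-Tg muscle, with 21 and 11 after denervation. Median centring gave 16 higher and 4 lower in WT muscle of set 2, 3 and 14 in Sesn1SkM-Tg muscle and 14 and 6 in Sesn1KO muscle. The median library sum of every treated group was below that of its basal group, with overlap in Sesn1KO muscle. The levels below are on the deposited scale, and falls that equal sums remove are named.

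The promoters of the members were searched for 2 short motifs, CACGTG, the E-box core bound by TFEB and TFE3 among many other factors, and GTAAACA, a core bound by FoxO factors. RefSeq promoters of GRCm38.p6 (250 bases before to 50 after each start) were found for 33 of the 41 members, and both strands were searched. CACGTG was in 5 of the 33 (15.2%) against 7.15% of all 32851 promoters, and the longer form GTCACGTG, which contains it, was in 3 (9.09%) against 2.25%. GTAAACA was in 0 of the 33 against 3.65% of all. A member counted if any of its promoters held the motif, while the background is a share of single promoters. A member with several promoters had more chances, so these shares are not directly comparable. Whether the motif plays a part in any change of these genes was not tested. The promoter windows with CACGTG are shown for all 5 genes, 3 of which, Atg3, Atg5 and Atg7, encode steps of the same conjugation system. Each is written 5′ to 3′ on the gene's strand with the motif in capitals.
Atg3 (chr16:45158727-45158748, plus strand): ccttttgtCACGTGtcctggga
Atg3 (chr16:45158750-45158771, plus strand): agtcgagtCACGTGaggcctta
Atg5 (chr10:44268317-44268338, plus strand): gcgcttgcCACGTGgtcttggt
Atg7 (chr6:114670956-114670977, plus strand): ttggtggtCACGTGtgcagtaa
Atg14 (chr14:47568422-47568443, minus strand): caaaatccCACGTGactggccc
Bnip3 (chr7:138909601-138909622, minus strand): acgcgccgCACGTGccacacgc
Counted from the start site, the first base of the motif is at -94 and -71 in Atg3, -14 in Atg5, -132 in Atg7, -1 in Atg14 and -108 in Bnip3. The members with the largest changes after denervation, Gabarapl1, Sqstm1 and Ulk2, had neither motif in this window.

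The LC3 and GABARAP genes, whose proteins are joined to the autophagosome membrane and hold cargo receptors there, rose together after denervation, where 4 of the 5 were called higher. Gabarapl1 (chr6:129533160-129542346) had 35.4, 32.5, 39.3 and 39.1 normalized counts in basal WT muscle of set 2, 76.6, 76.3, 103 and 69.9 after immobilization and 130.3, 141, 118 and 137 after denervation. All immobilized libraries lay above all basal ones, and all denervated libraries above all immobilized ones. It rose 1.82 on the log2 scale with denervation (SE 0.20, adjusted p = 1.7e-07) and 1.12 (SE 0.20, adjusted p = 0.00022) with immobilization, the largest rise of any member after denervation. In Sesn1KO muscle it went from 27.6, 35.1, 30.8 and 30.7 to 187, 115, 68.5 and 75.8 (log2 fold change 1.702, SE 0.20, adjusted p = 1.4e-06). The library with the highest value, replicate 1, is the one with Sesn1 in the WT range, and without it the gene was still above every basal library. In set 1 it went from 46.8, 55.7, 36.3 and 38.0 to 92.4, 161, 93.7 and 149 in Sesn2SkM-Tg muscle (log2 fold change 1.44, SE 0.21, adjusted p = 3.3e-05). WT muscle of set 1 had 54.4, 47.0, 53.0 and 60.1 at rest and 81.8, 72.8 and 65.6 after immobilization, without overlap, and the change was not called, 0.45 (SE 0.23, adjusted p = 0.14). Sesn1SkM-Tg muscle had 44.8, 46.3, 47.6 and 61.7 at rest against 66.6, 53.1 and 114 after immobilization, which overlapped (adjusted p = 0.057). The highest of these, replicate 3, is the library with low Sesn1.

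Map1lc3a, the gene of LC3A, was even among basal libraries of set 2 and uneven in set 1. It had 93.3, 97.8, 89.4 and 94.1 in basal, 128, 111, 121 and 129 in immobilized and 184, 186, 189 and 201 in denervated WT muscle, 3 groups that did not overlap. The rises were 1.01 (SE 0.09, adjusted p = 9.5e-09) after denervation and 0.38 (SE 0.09, adjusted p = 0.0033) after immobilization. Sesn1KO muscle went from 119, 108, 99.0 and 101 to 169, 157, 188 and 130.3, a rise of 0.58 (SE 0.09, adjusted p = 4.4e-05). In set 1 the basal values were 107, 97.5, 95.3 and 176 in WT, 120.2, 124, 178 and 136 in Sesn1SkM-Tg and 112, 232, 117 and 97.0 in Sesn2SkM-Tg muscle. In each, 1 basal library (replicate 4, 3 and 2 in that order) lay above every immobilized library of its genotype. The immobilized values of set 1 were 149, 156 and 136, 173, 124 and 125 and 132, 119, 149 and 142 in the same order. None of the 3 changes was called, with log2 fold changes of 0.35, 0.01 and 0.04.

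Gabarap rose with denervation from 90.3, 79.9, 84.5 and 80.3 to 125, 123, 129 and 134, by 0.60 (SE 0.08, adjusted p = 2.7e-06). Immobilized WT muscle of set 2 lay between, at 111, 91.8, 109 and 101, above every basal library (log2 fold change 0.30, SE 0.08, adjusted p = 0.0085). It was also called in WT muscle of set 1, from 88.8, 73.6, 80.4 and 117 to 109.6, 131 and 131 (log2 fold change 0.47, adjusted p = 0.038), where basal replicate 4 overlapped the immobilized range. This set 1 call was lost in 5 of 7 fits that left out 1 of the libraries compared, with median centring and with only the groups compared. Sesn1SkM-Tg muscle rose from 83.9, 78.6, 94.0 and 94.7 to 110.4, 134 and 129 (log2 fold change 0.50, adjusted p = 0.025), a call lost without immobilized replicate 3 (0.47). Sesn2SkM-Tg muscle had 98.1, 145, 84.3 and 84.6 at rest against 126, 130.2, 139 and 121 after immobilization, and Sesn1KO muscle 90.1, 95.7, 98.3 and 89.5 at rest against 91.3, 109.7, 110.2 and 118 after immobilization, both with overlap and neither called. Gabarapl2 was higher after both treatments in set 2. In WT muscle of set 2 it had 65.0, 67.8, 65.9 and 64.6 at rest, 109.5, 86.7, 103 and 95.2 after immobilization and 79.8, 86.2, 89.0 and 86.2 after denervation, with rises of 0.57 (SE 0.09, adjusted p = 4.4e-05) and 0.37 (SE 0.09, adjusted p = 0.0013). The difference between the treatments was not called, -0.20 (SE 0.09, adjusted p = 0.077). With Sesn1 knocked out, values went from 66.1, 69.6, 69.1 and 65.5 to 127, 122, 101 and 96.2 (log2 fold change 0.71, adjusted p = 2.5e-06) and Sesn2SkM-Tg muscle from 75.98, 82.9, 66.4 and 63.1 to 108, 119.9, 109 and 111 (log2 fold change 0.63, adjusted p = 0.00047), both without overlap. Sesn1SkM-Tg muscle went from 75.7, 62.3, 67.9 and 76.4 to 95.9, 85.3 and 92.7 (log2 fold change 0.37, adjusted p = 0.032), also without overlap but not called without replicate 3 (0.36) or with median centring. WT muscle of set 1, with 74.8, 71.7, 67.7 and 96.7 at rest against 83.5, 105 and 95.5 after immobilization, overlapped and was not called.

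Map1lc3b, the gene of LC3B, the form that is most used to follow autophagosomes, was called in 1 of the 6 comparisons. It had 169.8, 145, 151 and 158 in basal, 145, 164, 174 and 141 in immobilized and 167, 163, 209.5 and 218 in denervated WT muscle of set 2, groups that overlapped. Its log2 fold changes were -0.00 and 0.27 (adjusted p = 0.083). Sesn1KO muscle had 143, 156, 145 and 144 at rest against 127, 154, 119.8 and 201 after immobilization. In set 1 the values were 152, 163, 145 and 179.5 at rest against 206, 194 and 179 after immobilization in WT, and 153, 154, 152 and 173 at rest against 129, 180.2 and 132 after immobilization in Sesn1SkM-Tg muscle. The change was called in Sesn2SkM-Tg muscle alone, from 136, 169.5, 124 and 132 to 161, 187, 169 and 202 (log2 fold change 0.36, SE 0.12, adjusted p = 0.031), although basal replicate 2 overlapped the immobilized range. That call was lost in 5 of 8 fits that left out 1 of the libraries compared. Median centring and a fit of only the groups compared also removed it.

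Of the 3 cargo receptor genes, Sqstm1 was called higher in all 6 comparisons, Nbr1 in 3 and Optn in 2. Sqstm1 (chr11:50199366-50210827), which encodes p62, a receptor that links ubiquitinated cargo to LC3, had 398, 361, 392 and 523 in basal, 1046, 1284, 1103 and 788 in immobilized and 1084, 1139, 1256 and 1407 in denervated WT muscle of set 2. Every treated library was above every basal one, and the immobilized and denervated groups overlapped. The rises were 1.32 (SE 0.15, adjusted p = 1.3e-06) and 1.55 (SE 0.15, adjusted p = 2.5e-08), and the difference between the treatments was not called, 0.23 (SE 0.15, adjusted p = 0.25). Sesn1KO muscle went from 358, 385, 402 and 369 to 1063, 1070.0, 683 and 1039, a rise of 1.32 (SE 0.15, adjusted p = 8.3e-07) with replicate 3 well below the other 3. In set 1, WT muscle went from 609, 518, 472 and 501 to 838, 1087 and 1080.4 (log2 fold change 0.93, SE 0.19, adjusted p = 0.0012) and Sesn2SkM-Tg muscle from 439, 483, 469.8 and 411 to 1058, 1593, 969 and 1615 (log2 fold change 1.501, SE 0.17, adjusted p = 2.9e-06). Sesn1SkM-Tg muscle went from 497, 541, 607 and 548 to 978, 651 and 1069 (log2 fold change 0.68, SE 0.19, adjusted p = 0.0078), also without overlap, and without replicate 3 of the immobilized libraries the change was 0.54 (adjusted p = 0.066). Sqstm1 kept its call under every scaling in all 6 comparisons.

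Nbr1, another receptor of ubiquitinated cargo, was called in all comparisons of set 2 and in none of set 1. It had 89.2, 89.9, 80.4 and 84.9 in basal, 116, 123, 123 and 107 in immobilized and 151, 156, 158 and 168 in denervated WT muscle, which formed 3 groups without overlap. The rises were 0.44 (SE 0.08, adjusted p = 0.00024) and 0.87 (SE 0.08, adjusted p = 1.1e-08), and Sesn1KO muscle went from 81.9, 83.1, 77.0 and 81.1 to 108, 127, 96.9 and 118 (log2 fold change 0.47, SE 0.08, adjusted p = 0.00011). In set 1 the values were 108, 101, 100.5 and 78.9 at rest against 112, 124 and 109 after immobilization in WT muscle. Sesn1SkM-Tg muscle had 99.1, 96.2, 86.4 and 83.4 at rest against 96.2, 102 and 88.5 after immobilization. In Sesn2SkM-Tg muscle they were 124, 76.1, 115 and 103 and then 113, 127, 104 and 149. None of the 3 was called, with log2 fold changes of 0.25, 0.07 and 0.25. The difference between the WT groups of the sets was not called, -0.19 (SE 0.17, adjusted p = 0.54). Optn encodes optineurin, a receptor used in mitophagy. It rose with immobilization in WT muscle of set 2 from 85.7, 92.0, 78.0 and 107 to 129, 137, 137 and 136 (log2 fold change 0.57, SE 0.10, adjusted p = 0.0001). The rise in Sesn1KO muscle was from 103, 97.6, 102 and 85.1 to 165, 174, 161 and 154 (log2 fold change 0.75, SE 0.10, adjusted p = 3.4e-06). Denervated muscle had 64.1, 83.9, 79.2 and 79.7, and its change, -0.24 (adjusted p = 0.041), missed the fold threshold. In set 1 Optn was called lower in Sesn1SkM-Tg muscle, from 105, 106, 146 and 101 to 103, 74.8 and 56.5 (log2 fold change -0.57, adjusted p = 0.016), a call lost without immobilized replicate 3 (-0.36, adjusted p = 0.16), with equal library sums and with quantile normalization.

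**Figure D2:**
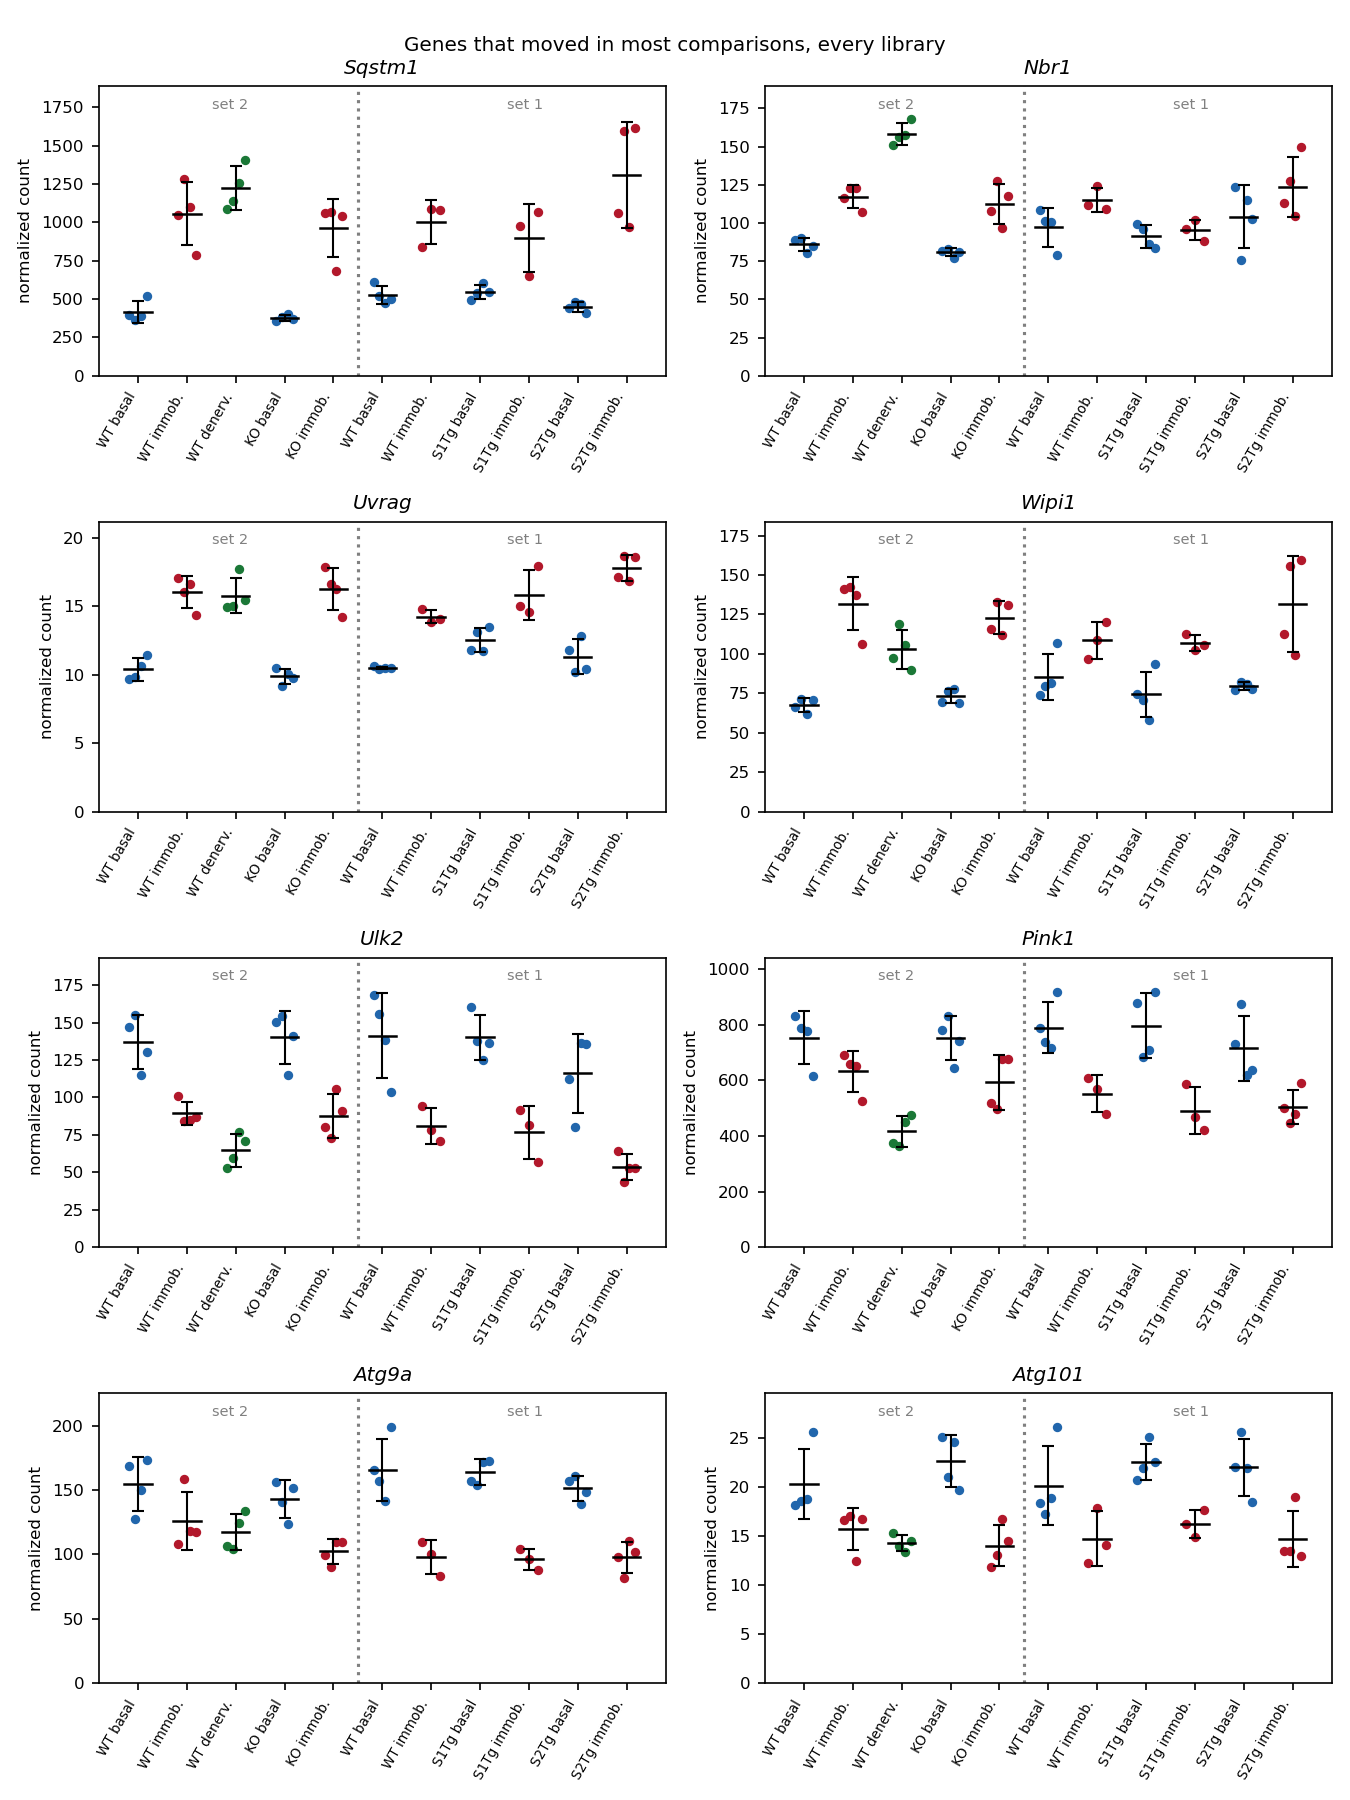
Normalized counts of Sqstm1, Nbr1, Uvrag, Wipi1, Ulk2, Pink1, Atg9a and Atg101 in every library (points; blue basal, red immobilized, green denervated), with the group mean (bar) and SD (whiskers), set 2 left and set 1 right of the dotted line. Sqstm1 is at 361 to 523 in basal and 1084 to 1407 in denervated WT muscle of set 2, and Ulk2 falls from 115 to 155 down to 52.6 to 77.0. KO stands for Sesn1KO, and S1Tg and S2Tg for Sesn1SkM-Tg and Sesn2SkM-Tg.

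Of the 2 kinase genes of the initiation complex, Ulk2 was called lower in all 6 comparisons and Ulk1 in 2. Ulk2 (chr11:61775649-61855073), a kinase closely related to ULK1, had 147, 155, 115 and 130.4 in basal, 101, 84.1, 85.1 and 87.1 in immobilized and 52.6, 59.3, 77.0 and 70.7 in denervated WT muscle of set 2. The 3 groups did not overlap, with falls of -0.61 (SE 0.13, adjusted p = 0.0012) and -1.07 (SE 0.13, adjusted p = 6.3e-07). In Sesn1KO muscle the values went from 150.1, 154, 115 and 141 to 80.2, 72.6, 106 and 91.2 (log2 fold change -0.68, SE 0.13, adjusted p = 0.00035). In set 1 it went from 168, 155, 138 and 103 to 94.4, 78.0 and 71.0 in WT muscle (log2 fold change -0.78, SE 0.20, adjusted p = 0.006). In Sesn1SkM-Tg muscle the change was from 160.5, 138, 125 and 137 to 91.6, 81.7 and 57.2 (log2 fold change -0.88, SE 0.20, adjusted p = 0.0021). Sesn2SkM-Tg muscle changed from 113, 80.1, 136 and 136 to 64.5, 43.7, 52.7 and 52.9 (log2 fold change -1.09, SE 0.18, adjusted p = 0.00015). Treated and basal libraries were separate in each genotype. With equal library sums the call was lost in WT muscle of set 1 alone among these 6. The calls of Ulk1 were both in set 1, with a fall from 114 ± 13.4 to 63.8 ± 24.4 in WT muscle (mean ± SD; n = 4 and n = 3; log2 fold change -0.89, SE 0.18, adjusted p = 0.0012). The other call was a fall from 107 ± 9.86 to 47.7 ± 6.88 in Sesn1SkM-Tg muscle (log2 fold change -1.15, SE 0.18, adjusted p = 0.00012). In set 2 its log2 fold changes were -0.00 in WT, -0.09 in Sesn1KO and 0.10 in denervated muscle, and the difference between the sets in WT muscle was -0.88 (SE 0.28, adjusted p = 0.0503), not called.

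The scaffold genes of the complex moved in different ways. Atg101, whose protein stabilizes ATG13, had 18.1, 18.6, 18.8 and 25.6 in basal, 16.6, 17.01, 12.4 and 16.7 in immobilized and 15.3, 13.9, 13.3 and 14.5 in denervated WT muscle of set 2, with treated libraries below basal ones. The denervation change was -0.47 (SE 0.13, adjusted p = 0.0046), and it was lost with equal library sums. The immobilization change, -0.35 (SE 0.13, adjusted p = 0.046), was near the threshold, was -0.23 without basal replicate 4 (adjusted p = 0.18), and was not called with equal library sums, median centring or quantile normalization. Sesn1KO muscle went from 25.1, 21.0, 24.6 and 19.7 to 11.8, 13.0, 16.7 and 14.5 (log2 fold change -0.66, SE 0.13, adjusted p = 0.00044). In set 1 the values were 18.3, 17.2, 18.9 and 26.1 at rest against 12.3, 17.8 and 14.1 after immobilization in WT muscle. Sesn1SkM-Tg muscle had 20.7, 21.9, 25.1 and 22.5 at rest against 16.2, 14.8 and 17.6 after immobilization. In Sesn2SkM-Tg muscle they were 22.0, 25.6, 21.9 and 18.5 and then 13.4, 13.4, 19.0 and 12.9. The changes were -0.42 (adjusted p = 0.054), -0.45 (adjusted p = 0.035) and -0.56 (adjusted p = 0.0075), and the 2 calls among them were lost with equal library sums. The Sesn1SkM-Tg change was also not called without immobilized replicate 3 (-0.51). Atg13, the adaptor that recruits the kinase, was called in opposite directions. It was higher with immobilization in WT muscle of set 2, 0.52 (SE 0.10, adjusted p = 0.00046), and in Sesn1KO muscle, 0.91 (SE 0.10, adjusted p = 6.5e-07). It was lower in WT muscle of set 1, -0.58 (SE 0.15, adjusted p = 0.0062), and in Sesn1SkM-Tg muscle, -0.52 (SE 0.15, adjusted p = 0.011). Both lower calls were lost with equal library sums. Denervation raised it by 0.50 (SE 0.10, adjusted p = 0.00027). Rb1cc1, which encodes the large scaffold FIP200, was called higher after denervation, 0.29 (adjusted p = 0.019), and in immobilized Sesn1KO muscle, 0.30 (adjusted p = 0.023), and not in set 1, where the changes were -0.19 to -0.09.

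Of the 6 genes of the class III PI3-kinase complex, which makes the lipid signal that recruits WIPI proteins, 5 were called higher and 0 lower after denervation. Uvrag, a subunit linked to the later, endosomal form of the complex, rose in all 6 comparisons. It had 9.67, 9.81, 10.7 and 11.4 in basal, 17.04, 16.1, 16.6 and 14.4 in immobilized and 15.0, 15.0, 17.7 and 15.4 in denervated WT muscle of set 2, low values with every treated library above the basal range. The rises were 0.58 (adjusted p = 0.00013) and 0.56 (adjusted p = 6.6e-05). With Sesn1 knocked out, values went from 10.5, 9.20, 10.0 and 9.79 to 17.9, 16.7, 16.2 and 14.2 (log2 fold change 0.66, adjusted p = 2.3e-05). WT muscle of set 1 went from 10.6, 10.4, 10.5 and 10.5 to 14.8, 13.8 and 14.1 (log2 fold change 0.40, adjusted p = 0.012) and Sesn2SkM-Tg muscle from 11.8, 10.2, 12.9 and 10.4 to 17.1, 18.7, 16.9 and 18.6 (log2 fold change 0.62, adjusted p = 0.00019), without overlap. Sesn1SkM-Tg muscle went from 11.8, 13.1, 11.7 and 13.5 to 15.0, 14.6 and 17.9, also without overlap (log2 fold change 0.31, adjusted p = 0.04), and that call was lost without immobilized replicate 3 (0.22, adjusted p = 0.22) and with median centring. Atg14, which directs the complex to the forming autophagosome, rose after denervation (0.53, SE 0.11, adjusted p = 0.00046) and in immobilized WT muscle of set 2 (0.41, SE 0.11, adjusted p = 0.008). Pik3c3, the lipid kinase itself, and Pik3r4, its regulatory partner, were higher after denervation by 0.30 (adjusted p = 0.04) and 0.30 (adjusted p = 0.049), and both calls were lost with quantile normalization. They were also lost in 5 and 6 of 8 fits that left out 1 of the libraries compared. In set 1 Pik3c3 was called lower in WT (log2 fold change -0.40, adjusted p = 0.012), Sesn1SkM-Tg (log2 fold change -0.33, adjusted p = 0.031, and -0.35 and not called without immobilized replicate 3) and Sesn2SkM-Tg muscle (log2 fold change -0.29, adjusted p = 0.045), and Pik3r4 in Sesn1SkM-Tg muscle (log2 fold change -0.56, adjusted p = 0.0073). With equal library sums none of these 4 calls was left. Ambra1, a regulator of the complex, rose after denervation (log2 fold change 0.40, adjusted p = 0.006) and was lower in immobilized WT muscle of set 1 (log2 fold change -0.54, adjusted p = 0.0037) and Sesn1SkM-Tg muscle (log2 fold change -0.47, adjusted p = 0.0067), the last 2 lost with equal sums. Becn1, the gene of beclin 1, was called once, lower in immobilized Sesn2SkM-Tg muscle, -0.30 (adjusted p = 0.012), where equal library sums turned it to 0.00.

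All 5 genes of membrane supply and expansion were called after denervation, 4 higher and Atg9a lower. Atg9a, the membrane protein that seeds the phagophore, had 169, 128, 150.4 and 174 in basal, 108, 159, 118 and 118 in immobilized and 107, 104, 125 and 134 in denervated WT muscle of set 2, where treated and basal values overlapped. The changes were -0.31 (SE 0.12, adjusted p = 0.059) and -0.40 (SE 0.12, adjusted p = 0.0091), and equal library sums turned the second to 0.07. Sesn1KO muscle went from 157, 141, 123 and 152 to 99.8, 90.0, 110.0 and 109.7 (log2 fold change -0.48, SE 0.12, adjusted p = 0.0039). In set 1 it went from 166, 157, 141 and 199 to 109.6, 100.2 and 83.4 in WT muscle (log2 fold change -0.75, SE 0.13, adjusted p = 0.00032). In Sesn1SkM-Tg muscle the change was from 157, 154, 172 and 173 to 104, 96.7 and 88.1 (log2 fold change -0.76, SE 0.13, adjusted p = 0.00023). Sesn2SkM-Tg muscle changed from 157, 161, 139 and 148 to 97.96, 81.6, 110.1 and 102 (log2 fold change -0.63, SE 0.12, adjusted p = 0.00048). Immobilized libraries were below all basal ones in these 4 genotype groups, and the calls held under equal sums.

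Wipi1, which binds the lipid made by the class III kinase, went the other way. It had 66.6, 71.4, 61.8 and 70.8 in basal, 141, 142, 137 and 107 in immobilized and 97.1, 119, 105 and 90.0 in denervated WT muscle of set 2, both treated groups above all basal libraries. The rises were 0.94 (SE 0.10, adjusted p = 5.0e-07) and 0.59 (SE 0.10, adjusted p = 3.8e-05), and Sesn1KO muscle rose from 69.7, 76.3, 77.9 and 69.1 to 116, 133, 112 and 131 (log2 fold change 0.74, SE 0.10, adjusted p = 7.3e-06). Sesn1SkM-Tg muscle went from 74.7, 70.6, 58.4 and 93.3 to 113, 102 and 105 (log2 fold change 0.54, adjusted p = 0.017) without overlap, but was not called without immobilized replicate 3 (0.55). Sesn2SkM-Tg muscle rose from 76.9, 82.1, 81.0 and 77.8 to 113, 155, 99.3 and 159 (log2 fold change 0.69, adjusted p = 0.0019), again without overlap. WT muscle of set 1, with 73.8, 79.3, 81.6 and 107 at rest against 96.9, 109 and 120.1 after immobilization, overlapped and was not called. Its relative Wipi2 rose after denervation (log2 fold change 0.45, adjusted p = 0.002) and in immobilized Sesn1KO muscle (log2 fold change 0.41, adjusted p = 0.0067). The lipid transfer genes Atg2a and Atg2b rose after denervation, by 0.39 (adjusted p = 0.0028) and 0.54 (adjusted p = 0.00032). With immobilization they were lower in WT muscle of set 1, with changes of -0.53 (adjusted p = 0.0038) and -0.56 (adjusted p = 0.015), and in Sesn1SkM-Tg muscle, with -0.53 (adjusted p = 0.0027) and -0.67 (adjusted p = 0.0041). These 4 calls were lost with equal library sums.

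Most conjugation genes rose with denervation, and fewer were called with immobilization. After denervation 4 of the 6 were called higher, the enzymes Atg3 and Atg7 and the conjugate partners Atg5 and Atg12, by 0.46 (adjusted p = 0.0028), 0.37 (adjusted p = 0.011), 0.42 (adjusted p = 0.0024) and 0.33 (adjusted p = 0.029). Atg12 lost its call with quantile normalization and in 4 of 8 fits that left out 1 of the libraries compared. Atg5, Atg7 and Atg12 were called in none of the 5 immobilization comparisons, while Atg3 was called higher in WT muscle of set 1 (log2 fold change 0.42, adjusted p = 0.039), WT muscle of set 2 (log2 fold change 0.35, adjusted p = 0.029) and Sesn1KO muscle (log2 fold change 0.37, adjusted p = 0.019). These Atg3 calls were lost in 4 of 7, 5 of 8 and 3 of 8 fits that left out 1 of the libraries compared, in that order. Fitting only the groups compared also removed the calls in WT muscle of set 1 and Sesn1KO muscle. Atg10, the enzyme that joins ATG12 to ATG5, went the other way. It fell from 11.03, 11.47, 9.22 and 9.51 in basal to 6.43, 6.46, 4.94 and 7.04 in immobilized and 6.00, 5.66, 6.28 and 5.89 in denervated WT muscle of set 2, low values without overlap between basal and treated libraries. The falls were -0.65 (SE 0.15, adjusted p = 0.0018) and -0.70 (SE 0.15, adjusted p = 0.00044), the second lost with equal library sums. In Sesn1KO muscle the values went from 8.13, 11.9, 11.3 and 8.20 to 5.37, 7.10, 4.47 and 6.56 (log2 fold change -0.66, adjusted p = 0.0014). In Sesn2SkM-Tg muscle they went from 10.7, 13.1, 10.96 and 11.1 to 10.8, 4.74, 8.29 and 5.73 (log2 fold change -0.62, adjusted p = 0.012), where replicate 1 stayed at the basal level and equal library sums removed the call. WT muscle of set 1 had 6.28, 6.34, 8.65 and 8.04 at rest against 5.68, 5.58 and 5.79 after immobilization, and Sesn1SkM-Tg muscle 6.67, 7.66, 6.34 and 6.30 at rest against 8.49, 7.50 and 5.59 after immobilization, neither called. Atg16l1, which places the conjugate on the membrane, was 0.13 (adjusted p = 0.24) after denervation. It was called lower with immobilization in both WT groups (-0.35 and -0.28) and Sesn1SkM-Tg muscle (-0.38), calls that equal library sums removed. In Sesn1SkM-Tg muscle the call was also lost without immobilized replicate 3 (-0.33).

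The ATG4 proteases, which trim LC3 and GABARAP before conjugation and release them afterwards, were called in different comparisons. Atg4b rose after denervation by 0.62 (SE 0.11, adjusted p = 4.6e-05) and was not called with immobilization. Atg4a rose with immobilization in WT muscle of set 2 by 0.46 (SE 0.10, adjusted p = 0.001) and in Sesn1KO muscle by 0.49 (SE 0.10, adjusted p = 0.00048), and was -0.20 (adjusted p = 0.086) after denervation. Atg4c was lower in immobilized Sesn1KO muscle, -0.72 (adjusted p = 0.0026), and Sesn2SkM-Tg muscle, -0.49 (adjusted p = 0.038). The Sesn2SkM-Tg call was lost with equal library sums and in 5 of 8 fits that left out 1 of its libraries. Atg4d was lower after denervation, -0.32 (adjusted p = 0.024), but 0.13 with equal library sums.

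The genes of mitophagy moved in both directions. Pink1 (chr4:138313409-138326307) had 831, 789, 778 and 615 in basal, 691, 661, 652 and 525 in immobilized and 375, 364, 449.8 and 477 in denervated WT muscle of set 2. Denervated libraries lay below all others of this genotype, while immobilized and basal ones overlapped. The changes were -0.85 (SE 0.13, adjusted p = 9.8e-06) after denervation, called under every scaling, and -0.25 (SE 0.13, adjusted p = 0.14) after immobilization. Sesn1KO muscle went from 782, 833, 646 and 743 to 518, 497, 677 and 678, with overlap (log2 fold change -0.35, adjusted p = 0.038), and without immobilized replicate 1 it was not called, at -0.29. In set 1 all groups separated, from 787, 738, 715 and 919 to 607, 571 and 478 in WT muscle (log2 fold change -0.52, adjusted p = 0.02). Sesn1SkM-Tg muscle fell from 877, 684, 710.0 and 917 to 586, 468 and 421 (log2 fold change -0.70, adjusted p = 0.0024), and values fell from 731, 874, 618 and 636 to 501, 446, 478 and 590.3 in Sesn2SkM-Tg muscle (log2 fold change -0.50, adjusted p = 0.014). Equal library sums removed the WT and Sesn2SkM-Tg calls of set 1 and the Sesn1KO call, which was also lost with median centring and with the replicate block.

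Park2, whose protein is activated by PINK1, was called once against basal, higher in immobilized WT muscle of set 2, from 6.80 ± 0.609 to 11.1 ± 1.15 (mean ± SD, n = 4; log2 fold change 0.64, SE 0.12, adjusted p = 0.00041). Denervated muscle had 6.18 ± 0.858. The outer membrane receptor Fundc1 fell in set 2, with changes of -0.76 (SE 0.10, adjusted p = 4.8e-06) in immobilized WT, -0.56 (SE 0.10, adjusted p = 0.00011) in immobilized Sesn1KO and -0.48 (SE 0.10, adjusted p = 0.00024) in denervated muscle, the last lost with equal sums. In set 1 its changes were -0.46, -0.35 and -0.36 in WT, Sesn1SkM-Tg and Sesn2SkM-Tg muscle, not called. Bnip3, a hypoxia-inducible receptor, rose in immobilized Sesn2SkM-Tg muscle from 150.2 ± 17.5 to 251 ± 25.3 (log2 fold change 0.74, SE 0.12, adjusted p = 0.00013) and after denervation (log2 fold change 0.32, adjusted p = 0.037). Denervated and basal libraries overlapped for Bnip3, and the denervation call was lost in 5 of 8 fits that left out 1 of the libraries compared. Its relative Bnip3l was lower in immobilized WT muscle of set 2 (log2 fold change -0.31, adjusted p = 0.0011) and Sesn1KO muscle (log2 fold change -0.27, adjusted p = 0.0031), and both calls were lost with equal library sums.

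Tfeb, a transcription factor for lysosome and autophagy genes, fell with denervation from 60.9, 60.8, 60.7 and 61.9 to 38.3, 32.4, 47.1 and 42.3 (log2 fold change -0.61, SE 0.11, adjusted p = 9.2e-05), while immobilized WT muscle had 73.1, 68.6, 56.1 and 55.1, which spanned the basal range. With Sesn1 knocked out, values went from 65.9, 65.6, 59.1 and 53.0 to 46.4, 46.4, 46.2 and 55.4 (log2 fold change -0.32, adjusted p = 0.03), with overlap at immobilized replicate 4, and without immobilized replicate 1 the change was -0.30 and not called. Sesn1SkM-Tg muscle fell from 64.4, 61.1, 67.2 and 67.7 to 47.5, 49.7 and 37.9 without overlap (log2 fold change -0.53, adjusted p = 0.0042). Equal library sums removed all 3 of these Tfeb calls, and median centring also removed the Sesn1KO one. WT muscle of set 1 had 58.6, 51.4, 51.5 and 62.0 at rest against 52.2, 58.5 and 45.5 after immobilization, and Sesn2SkM-Tg muscle 69.4, 71.6, 72.9 and 58.0 at rest against 58.8, 61.4, 59.6 and 45.4 after immobilization, neither called.

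The 2 treatments of WT muscle in set 2 were compared directly, since both lasted 3 days. Between denervated and immobilized muscle 18 members were called, 10 higher and 8 lower in denervated muscle, where 38.9% of all tested genes were called, 20.5% higher and 18.4% lower. Map1lc3a (0.64, SE 0.09, adjusted p = 1.5e-05), Gabarapl1 (0.70, SE 0.20, adjusted p = 0.0094), Gabarap (0.31, SE 0.08, adjusted p = 0.0053) and the receptor gene Nbr1 (0.43, SE 0.08, adjusted p = 0.00022) were higher after denervation. So were Atg4b (0.48), Atg12 (0.48), Atg16l1 (0.41), Atg7 (0.31), Atg2b (0.29) and Fundc1 (0.28). Median centring and quantile normalization each removed the calls of Atg7 (adjusted p = 0.042), Atg2b (adjusted p = 0.049) and Fundc1 (adjusted p = 0.027). Those of Atg7 and Atg2b were also lost in 6 and 7 of 8 fits that left out 1 of the libraries compared. Lower after denervation were Optn (-0.81, SE 0.10, adjusted p = 1.1e-06), Park2 (-0.76, SE 0.12, adjusted p = 4.6e-05), Atg4a (-0.67, SE 0.10, adjusted p = 1.8e-05), Tfeb (-0.65, SE 0.11, adjusted p = 9.6e-05) and Pink1 (-0.60, SE 0.13, adjusted p = 0.00085). So were Ulk2 (-0.47), Wipi1 (-0.35) and Atg4d (-0.34). Equal library sums removed the calls of Pink1, Ulk2, Wipi1 and Atg4d. Optn, Park2 and Atg4a had risen with immobilization and were not called after denervation. With equal library sums 30 were called, 26 higher and 4 lower, and the median of all genes moved to 0.26. With median centring there were 7 higher and 8 lower. Optn, Park2, Atg4a and Tfeb were lower and called on both scales. Fibre markers were lower in denervated than in immobilized muscle for 7 of 8 genes, and their part in these differences was not tested.

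**Figure D3:**
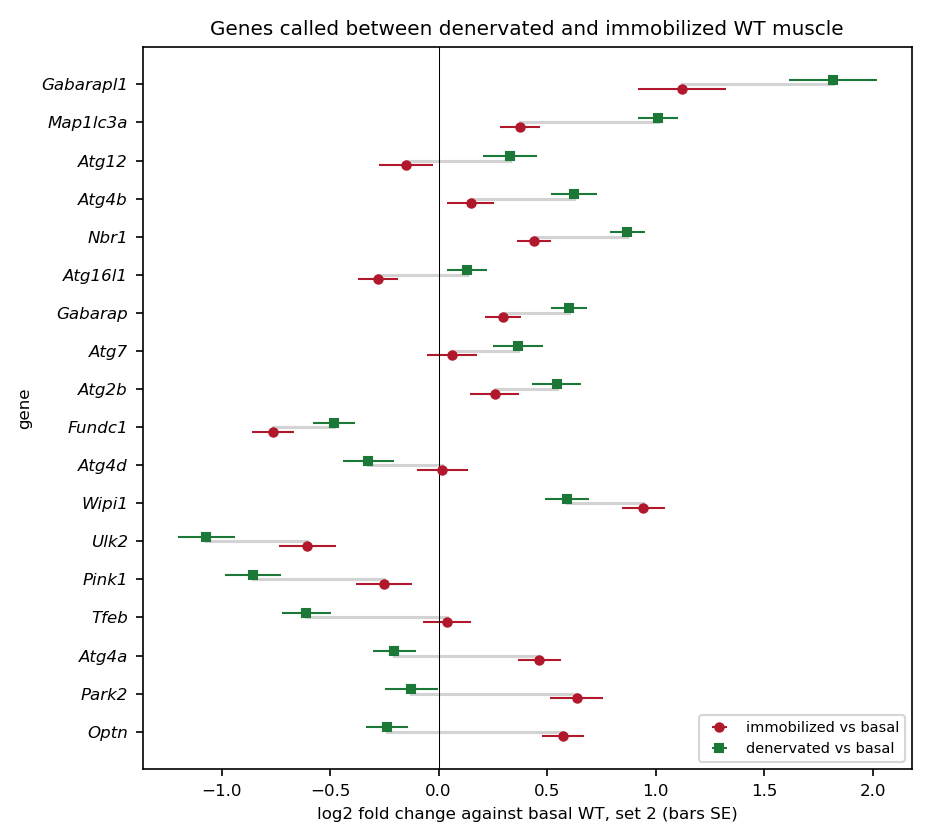
Log2 fold change against basal WT muscle of set 2 (x axis, bars SE) after immobilization (red circles) and denervation (green squares) for the 18 members called between the 2 treatments, ordered by the difference; both share the basal libraries. Optn, Park2 and Atg4a lie above 0.4 after immobilization and below 0 after denervation.

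WT muscle was immobilized in both sets, and the 2 effects were compared. The deposited values have nearly the same mean per gene in both sets: over all libraries the set means differed with an SD of 0.08 (log2) across 13809 genes, while basal WT muscle alone differed with an SD of 0.45. An adjustment between the sets is not described in the sources used here, so levels are not compared across sets, and what such a step would do to the effects was not tested. Fitted over all 42 libraries, the set 1 effect was below the set 2 effect for 5 members, where 6.2% of all genes were called (3.04% higher and 3.16% lower in set 1). They were Atg13 (-1.11, SE 0.18, adjusted p = 0.00048), Ambra1 (-0.83, SE 0.17, adjusted p = 0.0024), Atg2b (-0.82, SE 0.20, adjusted p = 0.01), Atg2a (-0.71, SE 0.15, adjusted p = 0.0043) and Optn (-0.70, SE 0.20, adjusted p = 0.029). Atg13 had 61.1, 54.2, 55.6 and 61.4 at rest and 51.1, 35.0 and 31.7 after immobilization in set 1, and 38.2, 35.9, 34.4 and 41.6 at rest against 53.0, 60.8, 56.1 and 47.6 after immobilization in set 2. It fell below the basal range in one set and rose above it in the other. Optn had 106, 87.6, 108 and 104 at rest against 101, 90.7 and 86.4 after immobilization in set 1, with overlap, against the rise of set 2 given above. Over the 41 members the median difference was -0.19 against 0.00 over all genes. With equal library sums the median of all genes was 0.18 and 3 were called, 1 higher and 2 lower (1 and 5 with quantile normalization), and Atg13 and Ambra1 were the lower ones. Leaving out replicate 3 of immobilized WT muscle in set 1 left 3 called, and leaving out replicate 1 of that group gave 8. Whatever else differed between the 2 sets cannot be told apart from this difference. The 5 endothelial markers summed to 154 to 206 in basal and 198 to 232 in immobilized WT muscle of set 1, and to 238 to 303 and 128 to 214 in set 2. The 4 Schwann cell markers summed to 16.2 to 29.7 and 47.6 to 80.1 in set 1, and to 36.8 to 62.9 and 28.8 to 45.6 in set 2. The part of these cells in the difference was not tested.

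**Figure D4:**
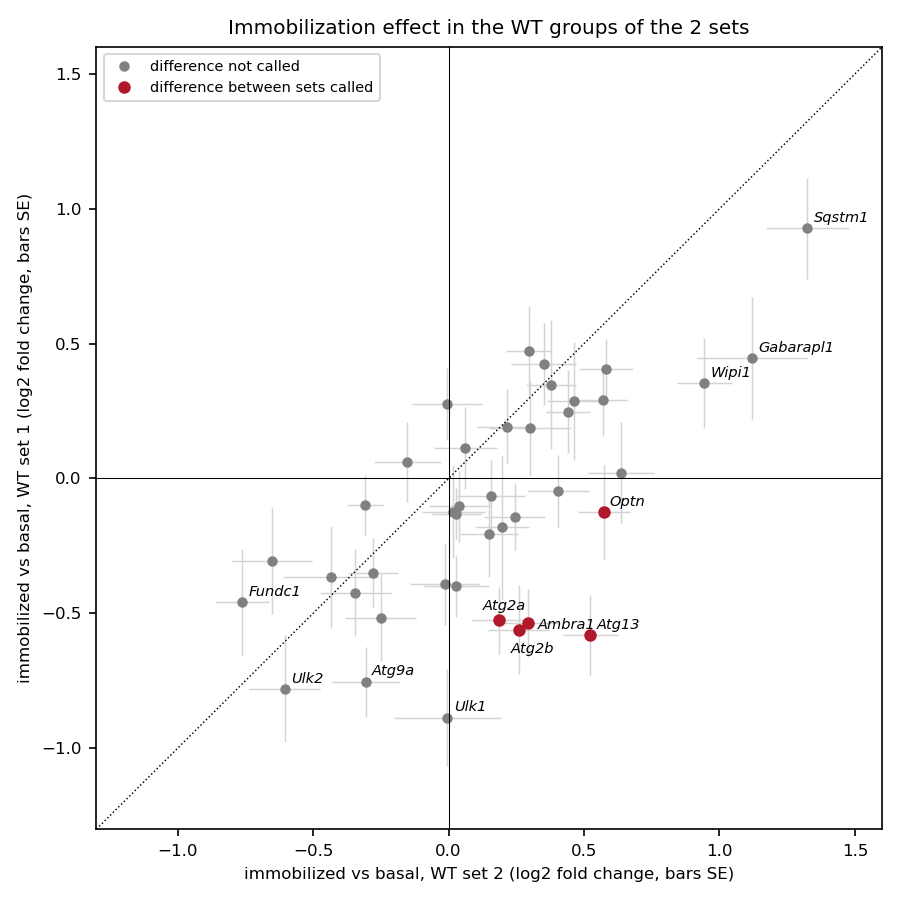
Immobilization effect in WT muscle of set 2 (x axis) against set 1 (y axis) for the 41 members, as log2 fold changes with SE bars; the dotted line marks equal effects. The 5 red points, for which the difference was called, lie to the right of 0 and below it, with Atg13 at 0.52 and -0.58.

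Few differences between the sestrin genotypes passed the test. Set against treatment-matched WT muscle of its own set, 0 of 41 members were called in basal Sesn1SkM-Tg muscle (background 0.0292%, all higher; 1 member at an unadjusted p under 0.05), 0 in basal Sesn2SkM-Tg muscle (2.5%, with 1.5% higher and 1% lower; 7 members) and 0 in basal Sesn1KO muscle (0.147%, with 0.0587% higher and 0.088% lower; 0 members) by limma. In immobilized muscle the counts were 0 for Sesn1SkM-Tg (background 0.0073%; 1 member), 0 for Sesn2SkM-Tg (2.94%, with 1.65% higher and 1.29% lower; 5 members) and 1 for Sesn1KO (0.947%, with 0.528% higher and 0.418% lower; 7 members). The gene called was Map1lc3a, at 169, 157, 188 and 130.3 in immobilized Sesn1KO against 128, 111, 121 and 129 in immobilized WT muscle, 0.39 (SE 0.09, adjusted p = 0.048). All Sesn1KO libraries were above the WT ones, but the call was lost in 18 of 20 fits that left out 1 library, with adjusted p up to 0.16, and without immobilized Sesn1KO replicate 1 it was 0.36. Nearest to the threshold in Sesn2SkM-Tg muscle were Bnip3l at rest, from 78.1, 77.9, 72.8 and 79.3 in WT to 64.4, 54.2, 60.8 and 57.4 (log2 fold change -0.38, SE 0.10, adjusted p = 0.0502), and Bnip3 after immobilization, from 208, 181 and 166 to 215, 263, 272 and 254 (log2 fold change 0.44, SE 0.13, adjusted p = 0.073). Gabarapl1 and Optn were also higher by value in immobilized Sesn2SkM-Tg muscle, at 0.71 (adjusted p = 0.087) and 0.54 (adjusted p = 0.095).

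The immobilization effect itself was compared between genotypes. By limma, 0 of 41 members were called for Sesn1SkM-Tg minus WT (background 0%; 2 members at an unadjusted p under 0.05), 0 for Sesn2SkM-Tg minus WT (0.0073%, all lower; 5 members) and 0 for Sesn1KO minus WT (0.022%, with 0.0147% higher and 0.00734% lower; 5 members). The smallest adjusted p-values were those of Bnip3 in Sesn2SkM-Tg muscle, 0.80 (SE 0.18, adjusted p = 0.15), and Atg13 in Sesn1KO muscle, 0.39 (SE 0.14, adjusted p = 0.5). A miss of the threshold does not show that the genotypes act alike.

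A wider list of 53 autophagy genes outside the 41 was read from the same fits; 50 were tested in set 1 and 49 in set 2. After denervation 29 of the 49 tested were called, 19 higher and 10 lower, with a median of 0.10. That is 59.2% of the list, beside 55.5% of all tested genes (27.8% higher and 27.7% lower). The largest rises were Tax1bp1, a cargo receptor, at 0.79 (SE 0.09, adjusted p = 1.1e-07), Tecpr1 at 0.76 (SE 0.12, adjusted p = 1.2e-05), Plekhm1, an adaptor for fusion with the lysosome, at 0.71 (SE 0.11, adjusted p = 1.1e-05), and Atg9b at 0.63 (SE 0.17, adjusted p = 0.0032). The largest falls were Tecpr2 at -1.64 (SE 0.16, adjusted p = 1.8e-08), Trp53inp2, a nuclear cofactor that promotes autophagy, at -1.27 (SE 0.13, adjusted p = 3.8e-08), Fundc2 at -0.76 (SE 0.09, adjusted p = 3.7e-07) and Fyco1, which links autophagosomes to microtubule motors, at -0.76 (SE 0.11, adjusted p = 3.3e-06). With immobilization the calls on this list were 3 higher and 13 lower of 50 in WT muscle of set 1, and 11 higher and 4 lower of 49 in WT muscle of set 2. They were 3 and 14 in Sesn1SkM-Tg, 3 and 12 in Sesn2SkM-Tg, and 10 and 6 in Sesn1KO muscle. As shares of the list the totals are 32% in WT muscle of set 1 (29.3% of all genes) and 30.6% in WT muscle of set 2 (33.9%). They are 34% in Sesn1SkM-Tg (34.7%), 30% in Sesn2SkM-Tg (30.7%) and 32.7% in Sesn1KO muscle (37.1%). Each total was near the background. By direction the list was uneven, with more lower than higher calls in every comparison of set 1 and the reverse in set 2. Of all tested genes 14.9% were called higher and 14.5% lower in WT muscle of set 1, and 16.2% and 17.7% in set 2. The shares were 18.2% and 16.5% in Sesn1SkM-Tg, 15% and 15.7% in Sesn2SkM-Tg and 17.2% and 19.9% in Sesn1KO muscle. The balance on this list with equal library sums was not tested.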

How the data were processed

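RNA sequencing of 42 TA muscle libraries was used. The deposited signal values are normalized counts made by the authors, who trimmed reads with cutadapt 1.7.1, discarded reads shorter than 30 bp, estimated expression with RSEM 1.2.20 on mouse transcripts (GRCm38) and normalized with limma. FastQC and edgeR are also named in the submitters' processing notes. The values are on a linear scale near CPM without zeros, and whole reads could not be recovered from them, so no count test was run and counting error is unknown. The number of libraries limits the precision. RSEM divides reads between similar transcripts, so genes with close copies are less certain.

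Values were taken as log2(value + 1), so that fold changes of low genes are understated, and genes reaching 1 in 1 or more libraries of a set entered (13705 genes in set 1 and 13629 in set 2). Each set was fitted separately with limma 3.58.1 in R 4.3.3 (moderated test with a trend, two-sided), with Benjamini-Hochberg adjustment over all genes tested. The comparison of the WT groups of both sets used 1 fit over 42 libraries. Calls required an adjusted p below 0.05 and a log2 change of 0.25 or more in either direction. The fit was tested on simulated data with known changes. Levels per kb used exon lengths of the GENCODE annotation for GRCm38.

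The members and the lists were chosen with earlier results of these data known. Every library value is given for members called in at least 4 of the 5 immobilization comparisons or in a genotype comparison, the 4 largest rises and 4 largest falls among those called after denervation, and the LC3 and GABARAP genes. Values of Atg13, Optn, Bnip3 and Bnip3l were added after they were seen. Of the wider autophagy list, the 4 largest rises and falls after denervation are named. Alternatives changed the pseudocount, filter, scaling, variance model, replicate block, groups in the fit and libraries left out.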

Additional observations from a re-analysis of the deposited data

Results flagged for a closer look

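Among the 15 members given library by library under the rule above, 135 groups of 4 libraries were examined for a value set apart from the other 3, and 12 were found. The values of Atg13, Optn, Bnip3 and Bnip3l, which were added later, were not examined. Chance gives about 1 in 20 groups. Atg101 had 3 of them: replicate 3 of immobilized Sesn2SkM-Tg muscle at 19.0 normalized counts against 12.9 to 13.4, replicate 4 of basal WT muscle of set 2 at 25.6 against 18.1 to 18.8, and replicate 3 of immobilized WT muscle of set 2 at 12.4 against 16.6 to 17.01. Map1lc3a was at 176 in replicate 4 of basal WT muscle of set 1 (others 95.3 to 107) and at 232 in replicate 2 of basal Sesn2SkM-Tg muscle (others 97.0 to 117). Map1lc3b was at 173 in replicate 4 of basal Sesn1SkM-Tg muscle (others 152 to 154) and at 156 in replicate 2 of basal Sesn1KO muscle (others 143 to 145). Gabarapl1 was at 61.7 in replicate 4 of basal Sesn1SkM-Tg muscle (others 44.8 to 47.6). Sqstm1 was at 683 in replicate 3 of immobilized Sesn1KO muscle (others 1039 to 1070.0). Wipi1 was at 107 in replicate 4 of immobilized WT muscle of set 2 (others 137 to 142). Tfeb was at 45.4 in replicate 4 of immobilized Sesn2SkM-Tg muscle (others 58.8 to 61.4) and at 55.4 in replicate 4 of immobilized Sesn1KO muscle (others 46.2 to 46.4).

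The immobilization effect in WT muscle differed between the sets by the limma test of the difference for 5 members: Atg13 (-1.11), Ambra1 (-0.83), Atg2b (-0.82), Atg2a (-0.71) and Optn (-0.70), each on the log2 scale as set 1 minus set 2.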

How the results depend on the processing

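Of the 145 calls of a member in a comparison, 143 were kept without a pseudocount, 144 with a pseudocount of 0.1, 145 with no filter and 145 with the filter at 3 libraries. Equal library sums kept 102, with 39 weaker and 4 reversed, namely Atg4d (0.13) and Atg9a (0.0671) after denervation and Pik3c3 (0.00988) and Becn1 (0.00342) in immobilized Sesn2SkM-Tg muscle. Median centring kept 133, quantile normalization 127, the fit without the trend 140 and the fit of only the groups compared 126. With a log2 change of 1 or more required, the counts were 4 after denervation, 0 and 2 in immobilized WT muscle of set 1 and set 2, 1 in Sesn1SkM-Tg, 3 in Sesn2SkM-Tg, 2 in Sesn1KO muscle, 0 between denervated and immobilized muscle, 0 between Sesn1KO and WT immobilized muscle and 1 for the difference of the sets. Fitting only the groups compared gave 8 in WT muscle of set 1, 1 for Sesn2SkM-Tg and 0 for Sesn1KO against WT after immobilization. Equal sums gave 30 between denervated and immobilized muscle and 3 between the sets. In basal Sesn2SkM-Tg against WT muscle 1 member, Bnip3l, was called with no filter, the filter at 3 libraries, equal sums or quantile normalization. The call of Map1lc3a in immobilized Sesn1KO muscle was lost (0 called) without a pseudocount, with quantile normalization, without the trend, with the replicate block and with only the groups compared.

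With 1 library left out, 2907 of 3106 called values kept their call, 199 were weaker and 0 reversed. Counts ranged from 26 to 32 after denervation, 7 to 16 and 17 to 21 in immobilized WT muscle of set 1 and set 2, 10 to 22 in Sesn1SkM-Tg, 10 to 17 in Sesn2SkM-Tg, 18 to 23 in Sesn1KO muscle, 15 to 19 between the treatments, 0 to 2 for Sesn2SkM-Tg against WT at rest and after immobilization, 0 to 2 for Sesn1KO against WT after immobilization and 3 to 8 between the sets. Chosen after seeing the data, leaving out both libraries whose Sesn1 level went against the label gave 10 in Sesn1SkM-Tg muscle (0 higher and 10 lower), 1 for Sesn2SkM-Tg against WT at rest, 2 after immobilization and 0 for Sesn1KO against WT. The replicate block gave 31 after denervation, 14 and 19 in WT muscle of set 1 and set 2, 19, 15 and 21 in Sesn1SkM-Tg, Sesn2SkM-Tg and Sesn1KO muscle, 19 between the treatments and 4 between the sets. Replicate numbers did not pair the samples. Deviations from the group means were correlated between libraries of different groups. Same-numbered libraries had a median correlation of 0.0365 over 51 pairs in set 1 and -0.0287 over 40 pairs in set 2. Differently numbered ones had 0.019 over 150 pairs and 0.00754 over 120 pairs. In set 1 single pairs ranged widely, from -0.452 to 0.534 with the same number and from -0.507 to 0.584 with different numbers. The cause of these changes was not tested, and the read depth is unknown.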
